A study of Mus with 6 samples.

Results

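The ErbB receptor family and its ligands were examined in cultured 4T1 cells, a mouse mammary carcinoma line, by RNA sequencing of total RNA. The set was fixed as 6 Ensembl gene IDs, the receptors Egfr, Erbb2 and Erbb3 and the ligands Areg, Ereg and Hbegf, out of 35304 IDs in the count table. In 3 samples the cells were exposed for 24 h to 10 µg/mL of IPA, isopimaric acid, a diterpene made by conifers that the study title calls an ion channel regulator. The 3 samples they were set against were 4T1 cells labelled as untreated. All samples were grown in RPMI medium with 10% fetal bovine serum, and the labels name neither a vehicle control nor separate cultures for the replicates. The spread that p-values are set against may thus be a technical one. The labelled cell line was not checked against marker genes, because symbols were paired only with the 6 IDs described here.

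ErbB receptors are tyrosine kinases of the cell surface that pair with each other when a ligand binds, and epithelial cells, those of the mammary gland among them, use them to drive growth and survival. Egfr is the receptor for epidermal growth factor. Erbb2 has no known soluble ligand of its own and serves as the preferred partner of the other receptors, while Erbb3 binds neuregulins but has little kinase activity. Amphiregulin (Areg) and epiregulin (Ereg) are made as membrane-bound precursors and, once cut free by a protease, bind Egfr. Heparin-binding EGF-like growth factor (Hbegf) is released in the same way and also binds Egfr.

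The libraries held 3410411 to 58924711 counts, the smallest being IPA replicate 1 and the largest untreated replicate 2. Untreated replicate 2 stood apart from the rest. Its correlations with the other 5 libraries in normalized log2 CPM (read counts scaled by the library total), taken across genes, ran from 0.779 to 0.811, against 0.922 to 0.987 among those 5. The fitted changes are therefore given with and without it. Levels are in CPM without further normalization unless another scale is named. Gene levels were not set against each other, since CPM is not corrected for transcript length. In bulk RNA, a change in the number of cells that express a gene and a change in its RNA per cell cannot be told apart.

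None of the receptors or ligands passed the test for a difference between IPA-treated and untreated cells. Of the 6 members, 5 passed the filter on low counts and 0 of these 5 were called higher or lower by edgeR's quasi-likelihood test at an adjusted p under 0.05. In the same test 0 of 24935 IDs were called, or 0%. The unadjusted p was under 0.05 for 0 of the 5 members, against 6.26% of all tested IDs. DESeq2 and limma-voom on these libraries also called 0 members, with 0 at an unadjusted p under 0.05. Of the 34648 IDs that DESeq2 tested, 22 were called higher and 63 lower, and 7.08% had an unadjusted p under 0.05. Limma-voom called 0 of 24935 IDs, and 6.01% had an unadjusted p under 0.05. When samples were weighted by quality, untreated replicate 2 at 0.0388, limma-voom called 0 members and had Egfr at a log2 fold change of -0.47 (unadjusted p = 0.00467, adjusted p = 0.0672). In that weighted fit 19.7% of the 24935 IDs had an unadjusted p under 0.05, and 562 were called higher and 842 lower. For 0 of the 5 did the CPM ranges of the 2 groups stay apart, against 22.1% of all tested IDs. The median log2 fold change was -0.06 over the 5 members and -0.08 over all tested IDs. Counts were also simulated with the depths of these 6 libraries, over 23962 IDs. In them edgeR found 0 of 100 genes set to change 2-fold and 12 of 100 set to change 4-fold. Most changes of that size were thus missed in the simulation, whose spread was fitted with untreated replicate 2 included. The fitted biological coefficient of variation was 0.263 for Hbegf to 0.428 for Erbb3, against a common value of 0.57. The simulated shares therefore do not give the chance of finding a change in a given member.

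Without untreated replicate 2, which leaves 2 untreated libraries, the count of members called stayed at 0 higher and 0 lower in edgeR. In that comparison 1.26% of 25592 IDs were called higher and 2.2% lower, 3.46% together. The unadjusted p was under 0.05 for 1 of the 5 members, Egfr, against 16.8% of all tested IDs. DESeq2 without that library called 0 members. It called 634 of 34467 IDs higher and 661 lower, and 11% of IDs passed the unadjusted threshold of 0.05. Egfr was the 1 member among those 11%, with a log2 fold change of -0.48. Limma-voom without that library called 1 member, Egfr, lower. In that limma-voom fit 714 of the 25592 IDs were called higher and 1081 lower, and 21% had an unadjusted p under 0.05. The median log2 fold change was -0.15 over the 5 members and -0.04 over all tested IDs. Simulated counts for that comparison, over 24918 IDs, let edgeR find 87 of 100 genes set to change 2-fold and 100 of 100 set to change 4-fold, with 20 false calls. No change smaller than 2-fold was simulated, whereas the fitted fold of Egfr in that comparison was 0.704. These shares thus do not give the chance of finding a change of that size in a member.

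**Figure D1:**
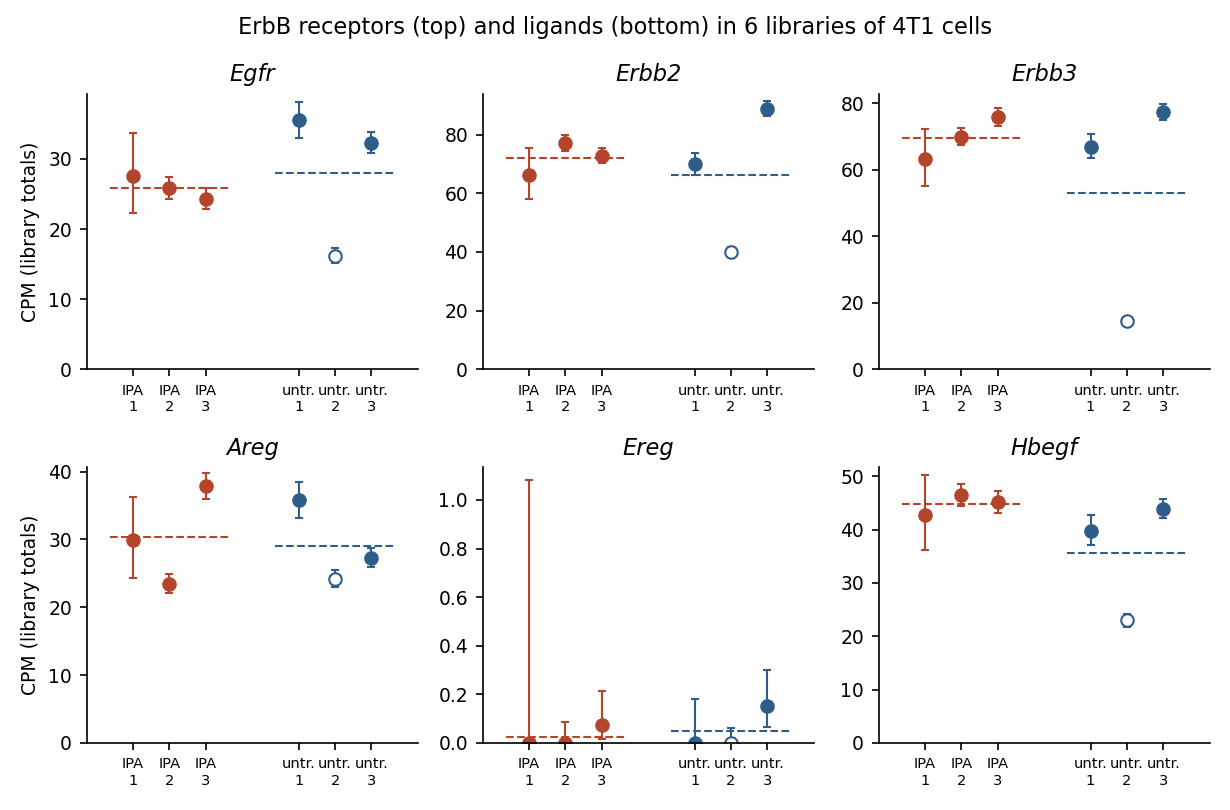
Level of each receptor (upper row) and ligand (lower row) in each library, in CPM of the library total on linear axes from 0. Points are libraries, with IPA on the left and untreated on the right of each panel; bars are 95% Poisson intervals for counting error, dashed lines are group means, and the open symbol is untreated replicate 2, which has the lowest value for Egfr, Erbb2, Erbb3 and Hbegf.

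Egfr (ENSMUSG00000020122) lies on chromosome 11, from 16752203 to 16913907 in RefSeq's annotation of GRCm38.p6. It had 27.6, 25.8 and 24.3 CPM in IPA replicates 1, 2 and 3, against 35.5, 16.2 and 32.3 CPM in untreated replicates 1, 2 and 3. The 3 IPA libraries lay close together, below untreated replicates 1 and 3 and above untreated replicate 2, so the groups overlapped only through that library. Egfr averaged 25.9 ± 1.6 CPM in IPA-treated cells and 28.0 ± 10.4 CPM in untreated cells (SD, n = 3 each). Its fitted log2 fold change over all 6 libraries was -0.30 ± 0.25 (SE; edgeR adjusted p = 0.706), with a 95% interval from -0.89 to 0.29. This interval spans folds from 0.54 to 1.23.

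Without untreated replicate 2 the log2 fold change of Egfr was -0.51 ± 0.16 (SE), a fold of 0.704 with a 95% interval from 0.556 to 0.893. The unadjusted edgeR p was 0.00596 and the adjusted p 0.0942. By limma-voom on the same 5 libraries, which called 714 IDs higher and 1081 lower of 25592, the adjusted p was 0.0388. The adjusted p of Egfr ran from 0.0388 to 0.998 over 23 alternatives. A fitted change at least as large was seen in 13.0% of IDs that averaged 5 CPM or more and in 27.7% of all tested IDs. Egfr was then the 1 member of the 5 whose CPM ranges in IPA and untreated libraries did not overlap; of the 25592 IDs tested in the same 5 libraries, 33.7% did not overlap in either direction. The Egfr span overlaps 2 long non-coding RNA genes in the RefSeq table, and those of Erbb2, Erbb3, Ereg and Hbegf overlap 1 gene each, protein-coding Mien1 in the case of Erbb2. These overlaps are of whole gene spans, and neither exons nor strands were compared. No source used here says whether counting used strand, so how reads from shared stretches were assigned is not known.

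Erbb2 (ENSMUSG00000062312), on chromosome 11 from 98412484 to 98437716, is the coreceptor that is amplified in a class of human breast cancers. It had 66.3, 77.0 and 72.8 CPM in IPA replicates 1, 2 and 3, against 69.9, 39.9 and 88.8 CPM in untreated replicates 1, 2 and 3. The IPA values lay between the untreated ones, and the lowest and the highest library were both untreated. The means were 72.0 ± 5.42 CPM with IPA and 66.2 ± 24.6 CPM without (SD, n = 3 each). The log2 fold change was -0.06 ± 0.24 (SE; edgeR adjusted p = 0.931), with an interval from -0.62 to 0.49. Without untreated replicate 2 it was -0.24 ± 0.14 (edgeR adjusted p = 0.434), with an interval from -0.53 to 0.06. With library totals in place of TMM factors the log2 fold change over all 6 libraries was 0.12, the direction of the mean CPM.

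Erbb3 (ENSMUSG00000018166), on chromosome 10 from 128567523 to 128589635, is known for recruiting phosphoinositide 3-kinase. It had 63.3, 69.9 and 75.7 CPM in IPA replicates 1, 2 and 3, against 67.0, 14.6 and 77.2 CPM in untreated replicates 1, 2 and 3. Apart from untreated replicate 2, the ranges of the groups overlapped. The means were 69.7 ± 6.21 CPM with IPA and 52.9 ± 33.6 CPM without (SD, n = 3 each). The log2 fold change was 0.27 ± 0.47 (SE; edgeR adjusted p = 0.85), with an interval from -0.84 to 1.37, the widest of the 5 members. Its sign turned without untreated replicate 2, to -0.15 ± 0.14 (edgeR adjusted p = 0.685), with an interval from -0.44 to 0.14.

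Areg (ENSMUSG00000029378), a ligand of low affinity for Egfr that is needed for duct growth in the mouse mammary gland, lies on chromosome 5 from 91139599 to 91148432. It had 29.9, 23.5 and 37.9 CPM in IPA replicates 1, 2 and 3, against 35.8, 24.2 and 27.3 CPM in untreated replicates 1, 2 and 3. The lowest and the highest library were both IPA libraries. The means were 30.4 ± 7.22 CPM with IPA and 29.1 ± 6.0 CPM without (SD, n = 3 each). The log2 fold change was -0.15 ± 0.26 (SE; edgeR adjusted p = 0.847), with an interval from -0.77 to 0.46. With library totals in place of TMM factors it was 0.064, the direction of the mean CPM. Without untreated replicate 2, and with TMM, it was -0.15 ± 0.20 (edgeR adjusted p = 0.794).

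Ereg (ENSMUSG00000029377), a ligand of both Egfr and ErbB4, was at or near 0 in every library and did not pass the filter. The read counts were 0, 0 and 3 with IPA, against 0, 0 and 8 in untreated cells, each in the order of replicates 1, 2 and 3. In each group a single library, replicate 3, held all the reads. A count of 0 allows a level of up to 3 counts of the library total, which is 0.88 CPM in IPA replicate 1 and 0.0688 CPM in IPA replicate 2, against 0.148 CPM in untreated replicate 1 and 0.0509 CPM in untreated replicate 2. Summed over libraries, the ratio of IPA to untreated, each as a share of its group's counts, was 0.563, with an exact 95% interval from 0.0961 to 2.34 that covers counting error only. The ratio was 0.312 without untreated replicate 2, with an interval from 0.0532 to 1.30. Ereg lies on chromosome 5 from 91074617 to 91093649, and 45949 bases separate it from Areg with 0 genes between them. Areg, by contrast, had at least 102 counts in every library.

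Hbegf (ENSMUSG00000024486), the heparin-binding ligand, had 42.8, 46.5 and 45.2 CPM in IPA replicates 1, 2 and 3, against 39.8, 23.0 and 43.9 CPM in untreated replicates 1, 2 and 3. Its coefficient of variation of CPM within the IPA libraries, 4.14%, was the lowest of the 5 members. On this scale only IPA replicate 1 lay within the untreated range. In TMM-normalized log2 CPM that range was 4.931 to 5.425. IPA replicates 1 and 3 lay within it, at 5.268 and 5.421, and IPA replicate 2 was at its upper edge, at 5.426. The means were 44.8 ± 1.85 CPM with IPA and 35.6 ± 11.1 CPM without (SD, n = 3 each). The log2 fold change was 0.14 ± 0.21 (SE; edgeR adjusted p = 0.827), with an interval from -0.36 to 0.65. Without untreated replicate 2 the difference came to -0.002 ± 0.146 on the log2 scale (edgeR adjusted p = 0.997), with an interval from -0.31 to 0.30. That interval spans folds from 0.809 to 1.23.

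**Figure D2:**
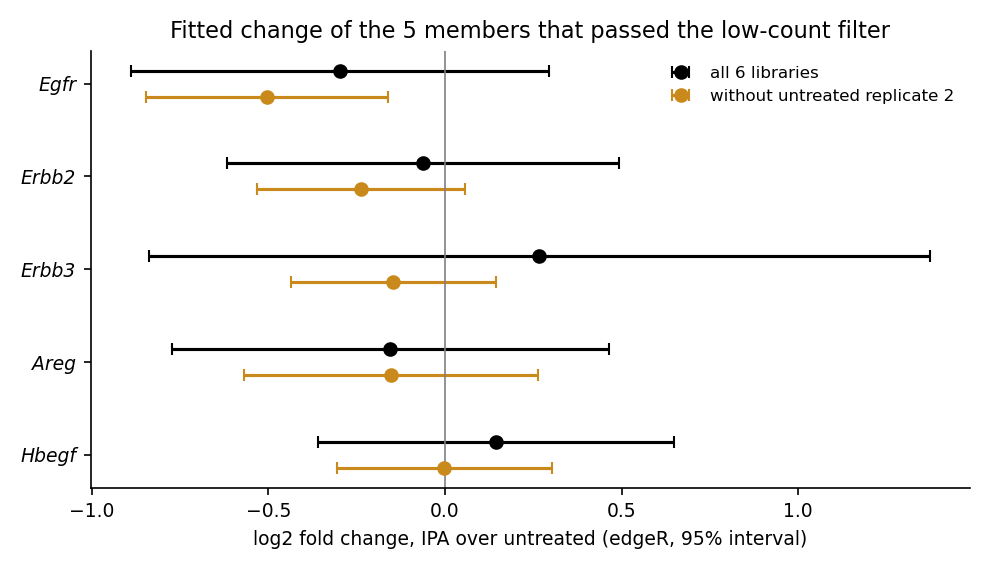
Fitted log2 fold change of the 5 members that passed the filter, IPA over untreated, with 95% intervals from edgeR. Black shows all 6 libraries and ochre the 5 left without untreated replicate 2; every interval includes 0 except that of Egfr in the second comparison, from -0.85 to -0.16 before adjustment over all IDs.

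The share of ligand reads among all reads of the 6 members, a measure that no normalization touches, was 31.6%, 28.8% and 32.5% in IPA replicates 1, 2 and 3, against 30.5%, 40.0% and 26.5% in untreated replicates 1, 2 and 3. The IPA values lay within the untreated range, whose upper end is untreated replicate 2; against untreated replicates 1 and 3 alone, IPA replicates 1 and 3 were above both and IPA replicate 2 lay between them. Receptors together stood at 157, 173 and 173 CPM in the IPA libraries, against 172, 70.7 and 198 CPM in the untreated ones. Ligands together stood at 72.7, 69.9 and 83.2 CPM in the IPA libraries, against 75.6, 47.1 and 71.4 CPM in the untreated ones. Untreated replicate 2 was the lowest library in both sums. Without it the ranges of the groups in CPM still overlapped for ligands, and narrowly for receptors through untreated replicate 1. These sums leave out the TMM factors, which were higher in every IPA library than in untreated replicates 1 and 3. Dividing by them would lower the IPA sums against those libraries, so the narrow receptor overlap holds for CPM of the library total only.

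Ratios between members within a library were compared next, 10 in all. For 2 of the 10 the ranges of the IPA and untreated libraries did not overlap; among all pairs of the 13113 IDs that averaged 5 CPM or more this share was 25.4%. One was the ratio of Hbegf to Egfr, a ligand and its receptor, at 1.55, 1.80 and 1.86 in IPA replicates 1, 2 and 3, against 1.12, 1.42 and 1.36 in untreated replicates 1, 2 and 3. It was higher by a factor of 1.34 with IPA (exact permutation test, two-sided, p = 0.1, the smallest that 3 against 3 samples can give; 0.5 adjusted over the 10 ratios). The other was Hbegf to Erbb2, at 0.646, 0.603 and 0.622 in the IPA libraries, against 0.570, 0.575 and 0.495 in the untreated ones, a factor of 1.14 (exact permutation p = 0.1; 0.5 adjusted). In IPA replicate 1 these ratios rest on 146 counts of Hbegf, 94 of Egfr and 226 of Erbb2. Counting alone gives these a coefficient of variation of 8.28%, 10.3% and 6.65%, and the ranges take no account of it. Without untreated replicate 2, ranges did not overlap for 3 of the 10, against 39.8% of all pairs, the third being Hbegf to Erbb3. Neither share among the members was above the background. The 10 ratios were built from the same 5 members and so were not independent, and each one with separate ranges held Hbegf.

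The ratio of Erbb3 to Erbb2, receptors known to signal potently as a pair, was 0.956, 0.908 and 1.04 in IPA replicates 1, 2 and 3, against 0.958, 0.366 and 0.870 in untreated replicates 1, 2 and 3. It lay between 0.870 and 1.04 in 5 libraries and was lower in untreated replicate 2. Other ratios with Erbb3 also set that library apart. Areg to Erbb3 ran from 0.336 to 0.5 in IPA libraries, against 0.534, 1.66 and 0.354 in untreated replicates 1, 2 and 3.

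**Figure D3:**
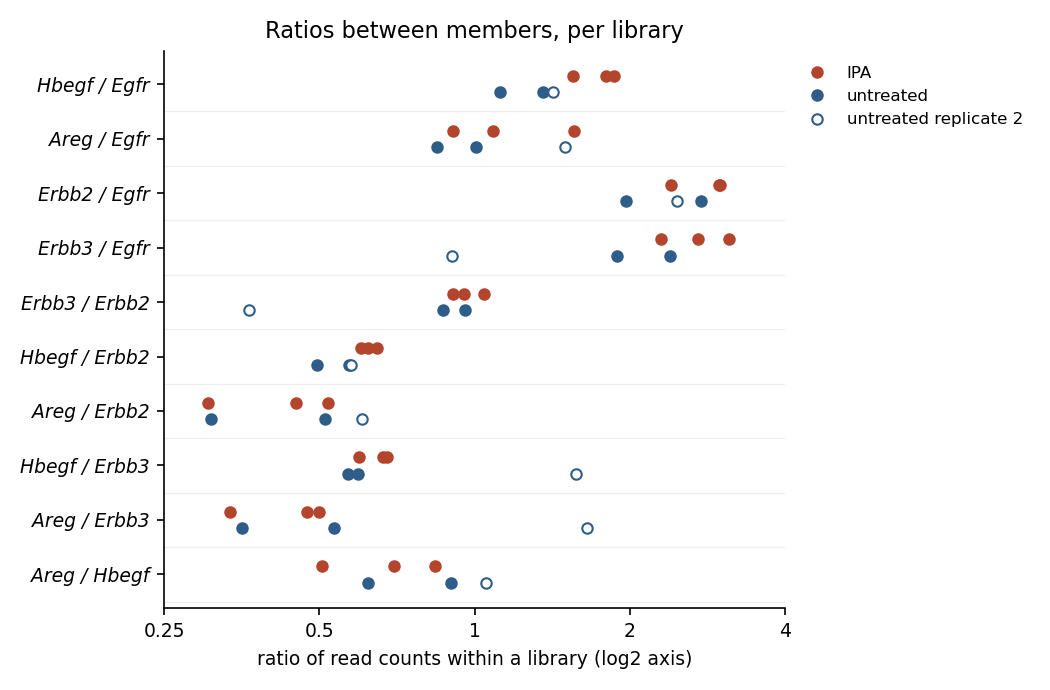
Ratio of the read counts of 2 members within each library, on a log2 axis, for the 10 pairs among the 5 members that passed the filter. IPA libraries are above and untreated ones below in each row, with untreated replicate 2 as an open symbol; it lies far from all others where Erbb3 is in the ratio, as for Erbb3 to Erbb2 at 0.366.

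The spread within each group differed between members. Untreated replicate 2 was below the mean of untreated replicates 1 and 3 by a log2 difference in TMM-normalized CPM of -1.86 for Erbb3, -0.63 for Egfr, -0.54 for Erbb2 and -0.43 for Hbegf, and differed by 0.06 for Areg. For all IDs at a mean of at least 5 CPM the middle of these differences ran from -0.89 at the lower quartile to 0.70 at the upper quartile. Erbb3 lay outside these quartiles, with 8.79% of IDs at or below it, and the other 4 members lay within them. Leaving out that library lowered the fitted biological coefficient of variation of Erbb3 to 0.117, against 0.428 with all libraries, the largest reduction among the 5 members. The common value over all tested IDs was 0.178 without that library, against 0.57 with it.

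Areg differed more between IPA replicates 2 and 3 than the other 4 members did. In TMM-normalized CPM replicate 3 was above replicate 2 by 0.72 on the log2 scale, a factor of 1.6, with 1554 and 1023 counts behind the values. Of the 13113 IDs at a mean of at least 5 CPM, 0.732% differed by as much between these libraries, and the median difference was a factor of 1.09. Egfr, Erbb2, Erbb3 and Hbegf differed between the same libraries by factors of 1.00 to 1.11. Between untreated replicates 1 and 3 Areg differed by a factor of 1.32, which 23.4% of IDs reached. This contrast for Areg was singled out after its values had been seen.

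**Figure D4:**
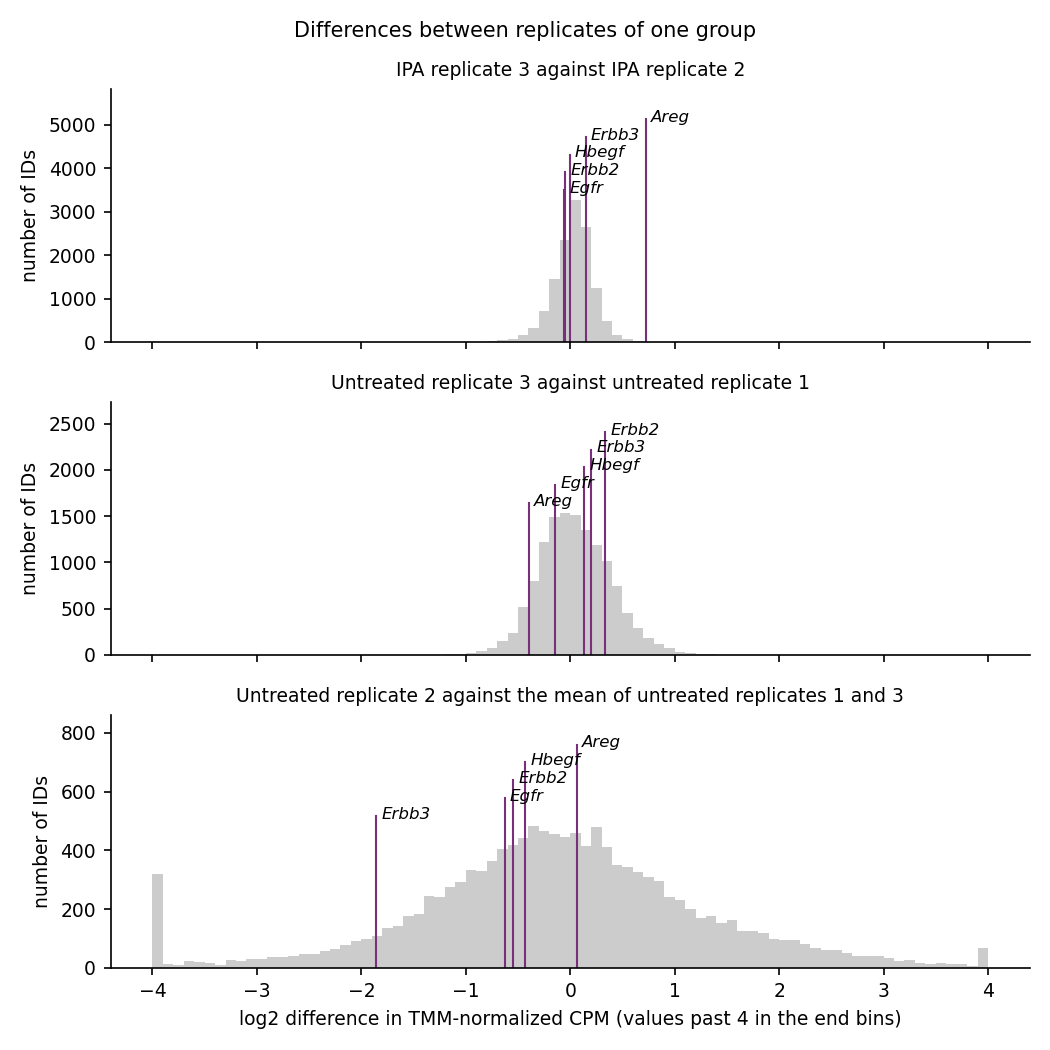
Distribution over 13113 IDs of the log2 difference in TMM-normalized CPM between replicates of a group, with the 5 members marked by vertical lines. Areg stands at 0.72 in the tail of the narrow distribution between IPA replicates 3 and 2, and Erbb3 at -1.86 in the wide distribution of untreated replicate 2 against untreated replicates 1 and 3.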

How the data were processed

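The authors deposited unnormalized counts, whole numbers for each Ensembl ID. Their aligner, counter, annotation release, strandedness and multimapping rules are not stated in the labels or the file. The submitters' processing notes name the builds GRCm38 and mm10. Column names of the treated samples are shorter than the titles and were matched by letters and number. The symbols of the 6 members came with their IDs; all 6 symbols were found in a RefSeq gene table of GRCm38.p6, which gave the coordinates printed for 5 of them. That table pairs 0 of its genes with Ensembl IDs, so further ErbB pathway genes and cell type markers were not analysed here. IDs with a pattern like that of a member were to be named only for called members, and edgeR called none. The members and lists were chosen with earlier results of these data known.

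Counts were tested over all IDs with edgeR 4.0.16 in R 4.3.3 (quasi-likelihood F-test, robust, TMM, filterByExpr), with Benjamini-Hochberg adjustment, IPA over untreated. The rule for named genes was to name every member. Standard errors were the log2 fold change over the square root of F. Correlations and differences between replicates used log2 CPM with TMM factors and a prior count of 2. Permutation tests used scipy 1.17.1. The background of the ratios added 0.5 to each count. The procedure was tested on simulated counts with changes set in IDs at a mean of at least 5 CPM and no library standing apart. Alternatives were DESeq2 1.42.0, limma 3.58.1 (voom), other factors and filters, a replicate block and leaving out samples. Depth ran from 3410411 to 58924711 counts; 3 counts were 0.88 CPM in the shallowest library and 0.0509 CPM in the deepest. The Poisson intervals, the Ereg interval and the floors cover only counting error, and the edgeR intervals also the spread between samples. Replicates differed beyond sampling noise (lowest chi-square per degree of freedom, 7.11), and 0 other IDs had counts within 2% of a member's in every library.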

Additional observations from a re-analysis of the deposited data

How the results depend on the processing

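Over 23 alternatives Egfr kept a negative log2 fold change, from -0.52 to -0.10, and passed in 1, limma-voom without untreated replicate 2, which gave 1 member called lower. The other members passed in none. Directions of uncalled members turned as follows. Library totals gave 0.12 for Erbb2 and 0.064 for Areg. For Erbb3, sample quality weights gave -0.073, and leaving out untreated replicate 2 gave -0.16 with the replicate block, -0.047 when IPA replicate 1 was also left out, -0.12 with DESeq2, -0.13 with limma-voom, -0.12 with RLE factors, -0.16 with upper-quartile factors, -0.042 with library totals and -0.11 with no filter. In the same 5 libraries the block gave 0.028 for Areg and -0.035 for Hbegf, and upper-quartile factors gave -0.014 for Hbegf. With 1 sample left out, log2 fold changes ran from -0.24 to 0.15 for Erbb2, -0.15 to 0.61 for Erbb3, -0.37 to 0.013 for Areg, -0.51 to -0.10 for Egfr and -0.0020 to 0.27 for Hbegf. Ratios were recomputed with 1 sample left out, an alternative chosen after seeing the data: the log2 difference of Hbegf to Egfr stayed between 0.32 and 0.50, and that of Hbegf to Erbb2 between 0.12 and 0.23. For these Hbegf ratios the sign could not turn, because the ranges of the groups did not overlap. Erbb2 to Egfr, Erbb3 to Egfr, Erbb3 to Erbb2, Areg to Erbb3 and Areg to Hbegf also kept their sign. Areg to Egfr changed sign, running from -0.13 to 0.32, as did Areg to Erbb2, from -0.42 to 0.085. Hbegf to Erbb3 did so too, from -0.58 to 0.15.

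Over all IDs the counts of higher and lower calls, 0 and 0, became 22 and 63 with DESeq2, 562 and 842 with sample quality weights, and 1 and 0 with library totals or no filter. With 1 sample left out they ran from 0 to 322 and from 0 to 564, every count above 0 coming without untreated replicate 2. In those 5 libraries they were 136 and 202 with the block, 719 and 763 without IPA replicate 1 as well, 634 and 661 with DESeq2, 714 and 1081 with limma-voom, 364 and 481 with RLE factors, 309 and 581 with upper-quartile factors, 691 and 327 with library totals and 701 and 749 with no filter. The cause was not tested. Over all 6 libraries the replicate block called 0 members and 0 IDs. Samples with the same number had deviations from their group means that correlated at -0.0771, 0.0183 and 0.161. The untreated means include untreated replicate 2, which stood apart, so these correlations cannot decide whether the samples were paired. The numbers were not taken to pair the samples. Depth limits IPA replicate 1, which had 94 counts for Egfr, most. Ereg is limited by low counts in deep libraries too, with 0 in untreated replicate 2, the deepest, and 8 in untreated replicate 3.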
